A study of Ovis aries with 6 samples.

Results

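Translation initiation and elongation factors are the proteins that bring ribosomes to mRNA, select the start codon and move the ribosome along the coding sequence. In the sheep gene table, 58 of 23144 listed genes had a symbol starting with EIF or EEF followed by a digit, and these 58 genes are described here. Among them, 47 were grouped by their EIF symbols with the initiation factors and their regulators. Whether each of these acts in initiation was not examined. Another 7 carried EEF symbols (elongation factors, the kinase of eEF2 and EEF1E1, a component of the aminoacyl-tRNA synthetase complex). The other 4 (EIF2C1 to EIF2C4) carried older symbols of the argonaute genes, which bind small RNAs and are not translation factors.

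The samples were of longissimus dorsi muscle, taken from 3 sheep of the breed Qianhua Mutton Merino (QHMM) and 3 of the breed Small Tail Han (STH). All were females at an age of 1 year from a common environment, and each animal gave 1 library. The comparison asks how gene expression in this muscle differs between breeds that differ in meat performance. Poly(A) RNA was read on an Ion Proton instrument, and the counts on genes came to 14334544, 12980936 and 12382244 for QHMM (replicates 1, 2 and 3) and 13107349, 10982191 and 13546561 for STH.

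Initiation starts when eIF2 delivers the initiator tRNA to the small ribosomal subunit, which eIF3 and the eIF4F complex place on the capped mRNA. In skeletal muscle this step is controlled mainly through the kinase mTOR, which releases the cap-binding protein eIF4E from its repressors, the 4E-BP proteins. Elongation is carried out by eEF1A, which brings aminoacyl-tRNA, and by eEF2, which moves the ribosome and is inhibited by its own kinase.

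Skeletal muscle genes were abundant in every library. Of 6 muscle fibre markers, ACTA1, CKM, MYLPF and DES were tested, MB was not matched by symbol, and TNNT3, which encodes fast troponin T, was listed at 0 in every library. The summed RPKM (reads per kilobase of gene, scaled to library size) of the matched markers, of which ACTA1 had the highest, was 111653, 124917 and 119897 in QHMM and 88084, 113901 and 135385 in STH. EdgeR, DESeq2 and limma-trend called 0 of the 4, beside 3.45% (edgeR) and 7.8% (DESeq2) of all tested genes. An unadjusted p-value below 0.05 was found for 0, beside 19.2% of all tested genes. On the second principal component, which held 19.1% of the variance, QHMM replicate 2 and STH replicate 3 stood apart from the other libraries. On the first, with 44.1%, the breeds separated, and STH replicate 2 lay farthest from QHMM.

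Of the 58 genes, 56 passed the edgeR filter on low counts. Of these, 55 were above its count minimum in all 6 libraries, and EIF2AK2 was above it in 5. EIF4E1B, an oocyte-type relative of EIF4E, had 0 counts in every library. EIF5A2, a second gene for eIF5A, had 8, 4 and 15 counts in QHMM and 14, 5 and 3 in STH and was not tested.

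A gene was called at a false discovery rate (FDR) below 0.05 in edgeR's quasi-likelihood test, adjusted over 12506 genes, if it also differed by more than 1.5-fold, which are the thresholds of the study's methods. By this rule 2 of the 56 tested members were called, EIF4EBP1 and EIF4G3, both higher in STH, beside 3.45% of all tested genes called in either direction and 1.62% called higher in STH. The share called in either direction was near the background. The edgeR count was 3 without STH replicate 1, 1 without QHMM replicate 2 or STH replicate 3, and 0 without STH replicate 2, QHMM replicate 1 or QHMM replicate 3, while DESeq2 on all libraries called 5, beside 7.8% of all tested genes. Before adjustment, 12 members had a p-value below 0.05, near the background of 19.2% of all tested genes, and 11 of the 12 had the higher mean in STH, beside 9.43% of all tested genes. The 3 STH libraries lay above all QHMM libraries for 19 members and below them for 1 member, which compares with 13% and 11.7% of all tested genes.

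The fold changes of the members lay mostly on the STH side. The log2 fold change of STH vs. QHMM was positive for 44 of the 56 members and negative for 12, with a median of 0.33, while 51.8% of all tested genes had a positive value and their median was 0.02. Without the argonaute genes, 42 of 52 were positive and the median was 0.35. The normalized count was highest in STH replicate 2 for 27 members (48.2%), against 22.8% of all tested genes, and in STH replicate 3 for 18 members (32.1%), against 16.9%. The median log2 fold change of the members was 0.24 without STH replicate 2, where 40 values were positive, and 0.30 without STH replicate 3, where 43 were positive. No test was made over the members as a set.

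**Figure D1:**
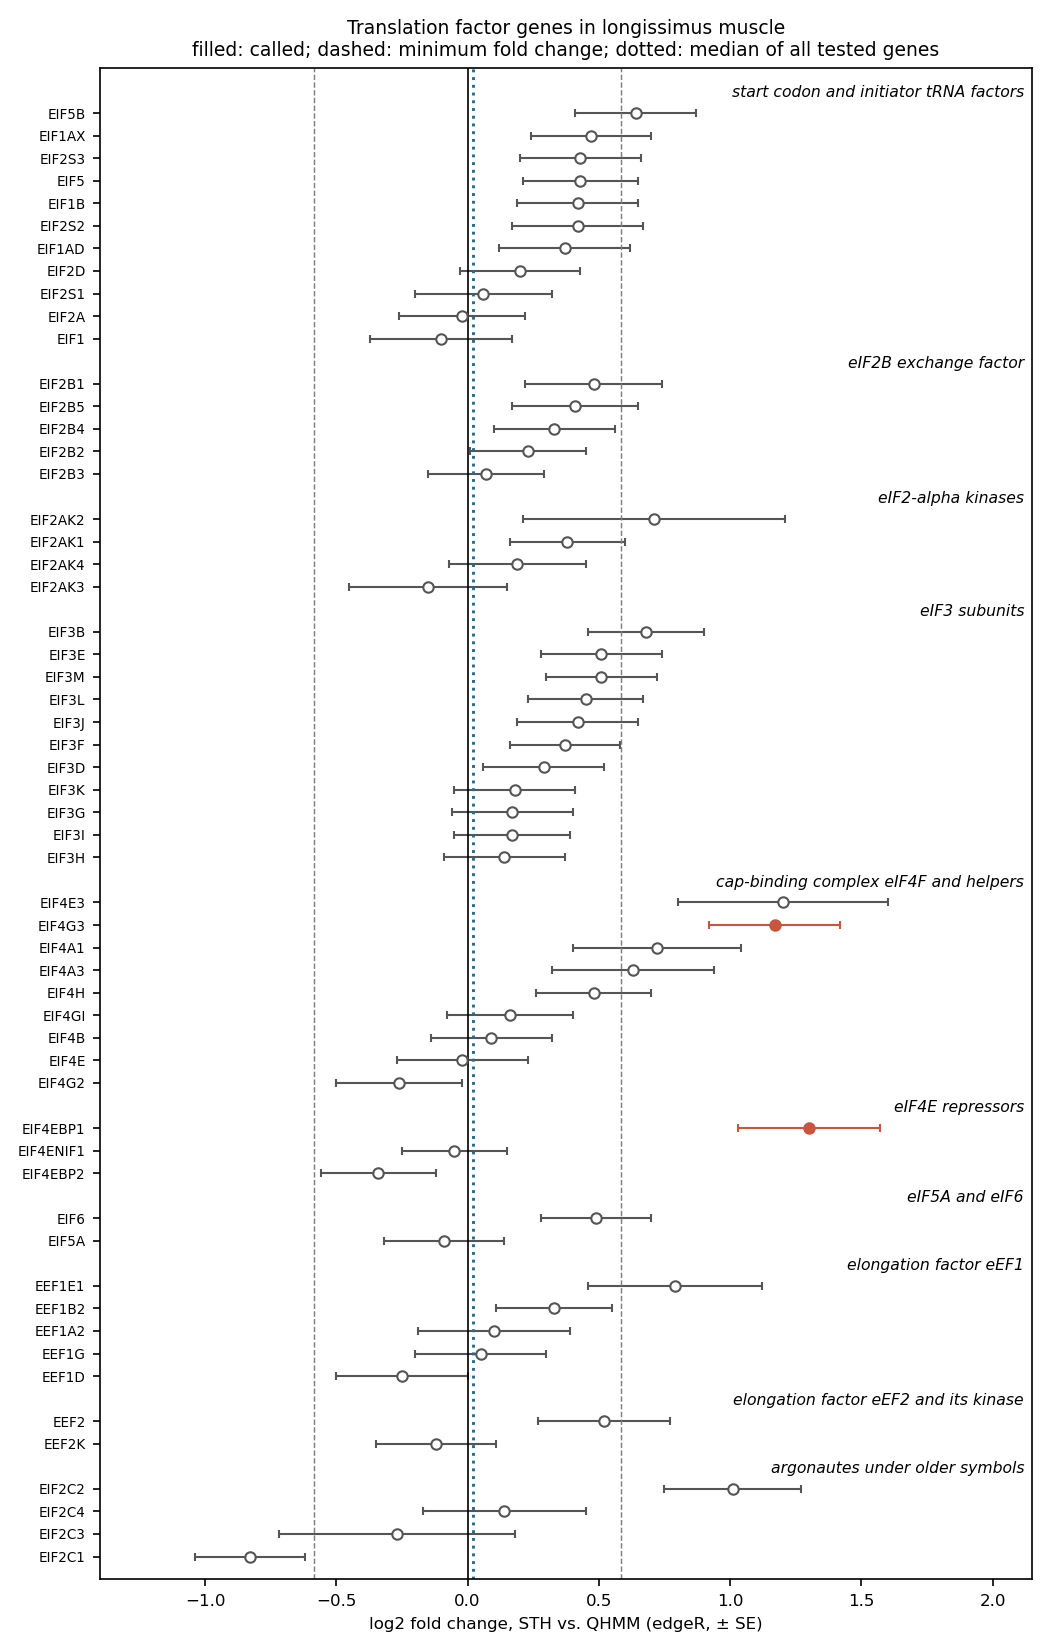
Log2 fold change of STH vs. QHMM with its SE for each tested gene, grouped by role. The filled points are EIF4EBP1 at 1.30 and EIF4G3 at 1.17, the dashed lines mark a 1.5-fold difference in either direction, and the dotted line marks the median of all tested genes at 0.02.

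As a share of all counts, the 58 genes took 1.38% to 1.49% in QHMM and 1.69% to 1.82% in STH, a scale not corrected for composition on which the breeds did not overlap. After TMM normalization the breeds overlapped, with summed normalized counts of 176454, 213250 and 187521 in QHMM and 182898, 212959 and 256622 in STH. The 95% Wilson intervals of the shares reached at most 0.00791 percentage points to either side and cover counting error only. A single gene, EEF1A2, held 0.459% to 0.530% (QHMM) and 0.531% to 0.633% (STH) of all counts. By mean RPKM, EEF1A2 ranked 23, EEF1G 77, EEF2 94, EIF5A 148 and EIF1 152 among 23119 genes, and the eIF2-alpha kinases EIF2AK2, EIF2AK3 and EIF2AK4 had the lowest mean RPKM of the tested translation factors.

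**Figure D2:**
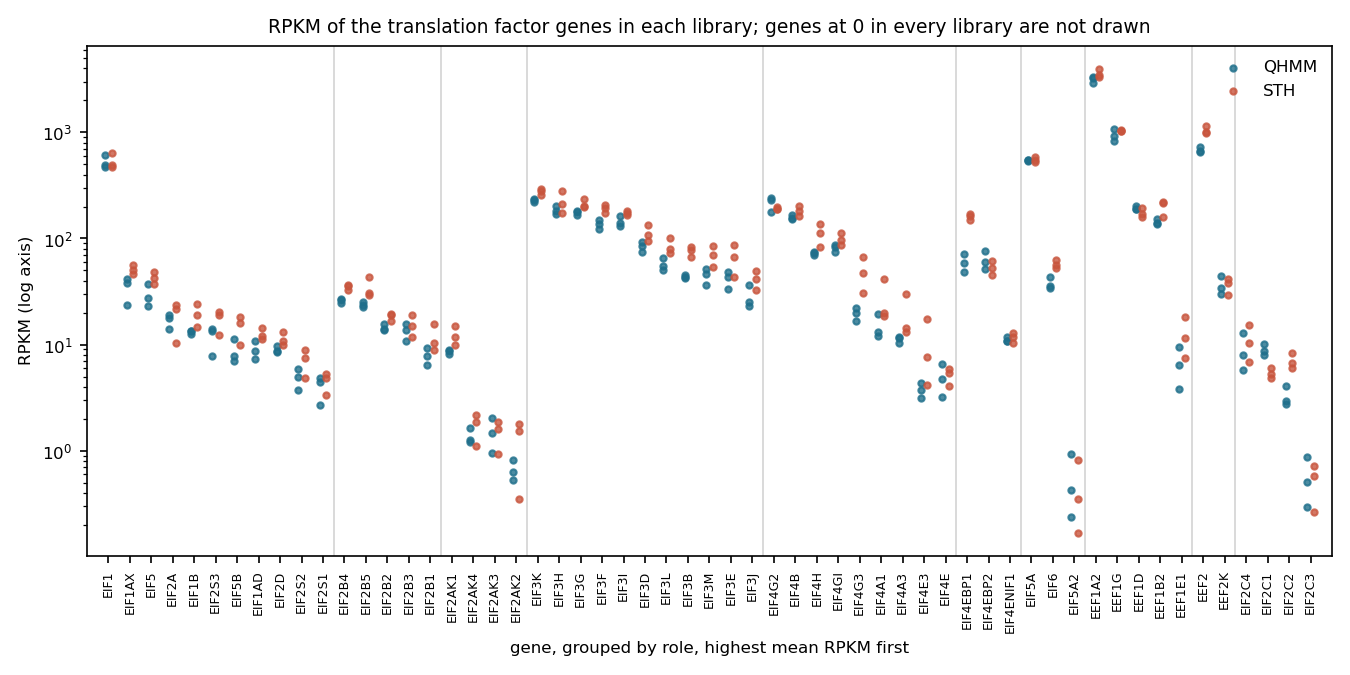
RPKM of each gene in each library on a log axis, grouped by role and ordered by mean RPKM within a role, with QHMM and STH points side by side. EEF1A2 stood highest, at a mean of 3142 in QHMM and 3599 in STH, EIF2AK3 and EIF2AK4 lay between 0.928 and 2.18, and EIF4E1B is not drawn because it was at 0.

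The repressors of eIF4E contained the called gene with the lowest FDR of the 58. EIF4EBP1 encodes 4E-BP1, which holds eIF4E away from eIF4G until mTOR phosphorylates it. The QHMM libraries had 684, 977 and 552 TMM-normalized counts of it, and the STH libraries 1454, 1798 and 2209. Every STH library lay above every QHMM library, with means of 738 ± 218 and 1820.4 ± 378 (SD, n = 3 each). EIF4EBP1 was thus 2.47-fold higher in STH, for a log2 fold change of 1.30 (SE 0.27) and an edgeR FDR of 0.0306.

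The call of EIF4EBP1 depended on which animals were included. It was made in 2 of the 6 fits with 1 library left out, and the edgeR FDR was 0.107 without QHMM replicate 1, 0.105 without QHMM replicate 3, 0.0668 without STH replicate 2 and 0.0676 without STH replicate 3, with log2 fold changes of 1.13 to 1.56 over the 6 fits. Over all alternatives its FDR was 0.000569 to 0.107. With QHMM replicate 2 and STH replicate 3 both left out, a choice made after the data were seen, the log2 fold change was 1.39 and the edgeR FDR 0.0942.

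The related EIF4EBP2, which encodes the second 4E-BP protein, had normalized counts of 716, 988 and 1038 in QHMM and 729.5, 679 and 751 in STH. The breeds overlapped, and the log2 fold change was −0.34 (SE 0.22; edgeR FDR 0.425). EIF4EBP3 was not matched by symbol and was not analysed here. EIF4ENIF1, which carries eIF4E into the nucleus and to RNA granules, had a log2 fold change of −0.05 (SE 0.20; edgeR FDR 0.919). On the RPKM scale, EIF4EBP1 and EIF4EBP2 were at 59.8 ± 11.3 and 62.2 ± 12.4 in QHMM and at 160.1 ± 10.5 and 53.5 ± 8.25 in STH (SD, n = 3 each).

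EIF4E, the cap-binding protein itself, was measured at 165, 132 and 223 normalized counts in QHMM and 158, 187 and 168 in STH. Its libraries overlapped, the log2 fold change was −0.02 (SE 0.25; edgeR FDR 0.975), and the value was 0.10 on the RPKM scale, 0.20 without QHMM replicate 3 and 0.02 without STH replicate 1. The ratio of EIF4EBP1 to EIF4E RPKM was 12.4, 22.1 and 7.40 in QHMM and 27.5, 28.8 and 39.4 in STH. All STH ratios lay above all QHMM ratios, and the mean log2 ratio was higher by 1.31. The exact two-sided permutation p was 0.1, the smallest that 3 vs. 3 animals allow. EIF4EBP1 had been known beforehand as a gene that differed, so this ratio is not independent of its call. The gene length implied by counts and RPKM was 902 bases for EIF4EBP1 and 2701 for EIF4E. The level of the ratio therefore depends on the gene models.

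The genes grouped by symbol with the cap-binding complex eIF4F and its helpers included 9 that were tested. Of these, edgeR called 1, beside 3.45% of all tested genes, and DESeq2 2, beside 7.8%. An unadjusted p-value below 0.05 was found for 3, beside 19.2% of all tested genes. Of the 9, 7 had positive fold changes, beside 51.8% of all tested genes, with a median log2 fold change of 0.48. The normalized count was highest in STH replicate 2 for 6 of them (66.7%), against 22.8% of all tested genes. EIF4G3 encodes eIF4GII, a scaffold that joins eIF4E, the helicase eIF4A and eIF3. It had 491, 489 and 532 normalized counts in the QHMM libraries and 980.4, 1532 and 891 in the STH libraries. The QHMM libraries lay close together at 504 ± 24.2, while STH spread more widely at 1134 ± 347 (SD, n = 3 each) without overlap. EIF4G3 was 2.25-fold higher in STH, for a log2 fold change of 1.17 (SE 0.25) and an edgeR FDR of 0.0325.

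STH replicate 2 gave the highest EIF4G3 value. Without it the log2 fold change was 0.87 and the edgeR FDR 0.0862. The call was also lost without any 1 of the QHMM replicates 1, 2 and 3 (edgeR FDR 0.108, 0.101 and 0.0946), at log2 fold changes of 1.13, 1.15 and 1.21. With QHMM replicate 2 and STH replicate 3 both left out, the log2 fold change was 1.29 and the edgeR FDR 0.127. Over all alternatives its FDR was 0.00147 to 0.129.

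The main scaffold EIF4G1 is listed as EIF4GI and had normalized counts of 5591, 6369.6 and 4686 in QHMM and 5251, 6689 and 6662 in STH. Its breeds overlapped, with a log2 fold change of 0.16 (SE 0.24; edgeR FDR 0.767). EIF4G2, which encodes the scaffold DAP5 that lacks the eIF4E-binding part, was the most abundant by RPKM of the genes grouped here with eIF4F and its helpers. It was measured at 11395, 10577 and 11674 normalized counts in QHMM and 7988, 9055 and 11095 in STH, where the breeds overlapped at a log2 fold change of −0.26 (SE 0.24; edgeR FDR 0.604).

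The ratio of EIF4G3 to EIF4G1 RPKM was 0.230, 0.201 and 0.297 in QHMM and 0.488, 0.599 and 0.350 in STH. The STH ratios lay above those of QHMM, the mean log2 ratio being higher by 0.97. The exact two-sided permutation p was 0.1, the smallest possible. EIF4G3 had been known beforehand to differ, so this ratio is not independent of its call. The gene length implied by counts and RPKM was 1932 bases for EIF4G3 and 5052 for EIF4GI, so the level of the ratio depends on the gene models.

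EIF4E3, a cap-binding relative of EIF4E, had normalized counts of 104, 149 and 141 in QHMM and 215, 528 and 165 in STH. The STH libraries lay above those of QHMM, but STH replicate 2 was far above the other STH libraries. Its log2 fold change of 1.20 (SE 0.40) did not pass the test at an edgeR FDR of 0.130, and it was 0.52 without that library. DESeq2 called it at an FDR of 0.0395, and over the alternatives the FDR was 0.0395 to 0.473.

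The helicase EIF4A1, which unwinds the mRNA leader, also had its highest normalized count in STH replicate 2, at 2097, against 933 and 1202 in the other STH libraries and 1066, 852 and 657 in QHMM. Its log2 fold change was 0.72 (SE 0.32; edgeR FDR 0.248). EIF4H, a partner of the helicase, had a log2 fold change of 0.48 (SE 0.22; edgeR FDR 0.278), with every STH library above every QHMM library. EIF4B, the other helicase partner, was at 0.09 (SE 0.23; edgeR FDR 0.876). Outside the symbol rule, LOC100037661 and LOC101103218 are named EIF4A2 and EIF4E2 in RefSeq by their gene IDs. Their log2 fold changes were 0.50 (SE 0.29; edgeR FDR 0.389) and 0.25 (SE 0.24; edgeR FDR 0.620), and the breeds overlapped for both. The mean RPKM of all libraries was 105 for EIF4A2 and 20.8 for EIF4A1. The gene length implied by counts and RPKM was 1142 bases for EIF4A2 and 4298 for EIF4A1. The size of this gap therefore depends on the gene models.

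The eIF3 complex joins the small ribosomal subunit to eIF4F. All 11 listed subunits were tested and had positive log2 fold changes between 0.14 and 0.68, while 51.8% of all tested genes had positive values. Their median was 0.37, and edgeR called 0 of them, beside 3.45% of all tested genes. Before adjustment 3 had a p-value below 0.05, beside 19.2% of all tested genes. DESeq2 called 0, beside 7.8%, and limma-trend on log2(RPKM + 1) called 1. The median was positive in every fit made and was 0.28 without STH replicate 2. The STH libraries lay above QHMM for 5 subunits, beside 13% of all tested genes.

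EIF3B, a scaffold subunit of the complex, had the largest log2 fold change of the tested eIF3 subunits. It had normalized counts of 1521, 1887 and 1449 in QHMM and 2464, 2502 and 2806 in STH. The breeds were well apart, at 1619 ± 235 and 2591 ± 187 (SD, n = 3 each), and the log2 fold change was 0.68 (SE 0.22). The edgeR FDR of 0.119 did not pass. Limma-trend on log2(RPKM + 1) called the gene at an FDR of 0.0462, and over the alternatives the FDR was 0.0462 to 0.306.

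EIF3K, a small subunit at the edge of the complex, was the most abundant by RPKM at 229.8, 222 and 233 in QHMM and 294, 259 and 282 in STH. On normalized counts the breeds overlapped, with a log2 fold change of 0.18 (SE 0.23; edgeR FDR 0.719), which was 0.01 without STH replicate 3. The core subunits eIF3a and eIF3c were listed under other identifiers, outside the symbol rule. LOC100137071, named EIF3A in RefSeq by its gene ID, had a log2 fold change of 0.64 (SE 0.27; edgeR FDR 0.229). LOC101112694, whose deposited BLAST symbol is EIF3C, had a log2 fold change of 0.52 (SE 0.24; edgeR FDR 0.259).

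The genes grouped by symbol with the factors that carry the initiator tRNA and select the start codon numbered 11, and all were tested. Of these, 9 had positive fold changes, beside 51.8% of all tested genes, with a median log2 fold change of 0.42. The STH libraries lay above QHMM for 6, beside 13% of all tested genes, and edgeR called 0, beside 3.45%. An unadjusted p-value below 0.05 was found for EIF5B alone, beside 19.2% of all tested genes. DESeq2 called 0, beside 7.8%, and limma-trend called 0. EIF5B is the GTPase that joins the large ribosomal subunit. It had normalized counts of 441, 468 and 623 in QHMM and 767, 952 and 662 in STH. The breeds did not overlap, the log2 fold change was 0.64 (SE 0.23) and the edgeR FDR was 0.164.

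EIF1, which guards start codon selection, was the most abundant of this role by RPKM. It stood at 7888, 12111 and 8031 normalized counts in QHMM and 6964, 9867 and 9270.0 in STH. These values overlapped, and the log2 fold change was −0.10 (SE 0.27; edgeR FDR 0.879), turning to 0.03 on the RPKM scale, 0.13 without QHMM replicate 2 and 0.02 without STH replicate 1. EIF2S1, the subunit of eIF2 that the stress kinases phosphorylate, had normalized counts of 99.1, 71.4 and 108 in QHMM and 92.4, 109 and 89.6 in STH. The fitted log2 fold change was 0.06 (SE 0.26; edgeR FDR 0.928), and it was −0.09 without QHMM replicate 2 and −0.05 without STH replicate 2.

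Some of these genes have other entries in the table that its annotation names as copies, whose likeness in sequence was not measured, and only uniquely mapped reads were counted. An entry for a copy of EIF2S1 held 657 reads over the 6 libraries, more than the 572 of EIF2S1. Copies of EIF2S2 held 141% of its own reads, those of EIF4A3 53.1%, those of EIF3F 31.3% and those of EIF1 21.6%. For the other members with copies that held reads, the share was at most 6.46%.

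The eIF2B complex reloads eIF2 with GTP, and its 5 subunits are encoded by EIF2B1 to EIF2B5. All 5 had positive log2 fold changes, between 0.07 and 0.48, while 51.8% of all tested genes had positive values. The breeds overlapped for every subunit, where STH lay wholly above QHMM for 13% of all tested genes and wholly below for 11.7%. EdgeR called 0, beside 3.45% of all tested genes. An unadjusted p-value below 0.05 was found for 0 of them, beside 19.2% of all tested genes. DESeq2 called 0, beside 7.8%, and limma-trend called 0. The most abundant by RPKM, EIF2B4, had normalized counts of 549.9, 668 and 507 in QHMM and 583, 696 and 887 in STH, for a log2 fold change of 0.33 (SE 0.23; edgeR FDR 0.477), which was 0.16 without STH replicate 3.

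The 4 eIF2-alpha kinases, which lower initiation under heme deficiency, viral RNA, endoplasmic reticulum stress and amino acid shortage, overlapped between the breeds. Of all tested genes, 13% lay wholly higher and 11.7% wholly lower in STH. EdgeR and DESeq2 called 0 of the 4 kinases, beside 3.45% and 7.8% of all tested genes, and limma-trend called 0 of the 3 it tested. An unadjusted p-value below 0.05 was found for 0, beside 19.2% of all tested genes. EIF2AK1, the heme-regulated kinase, was the most abundant by RPKM, with normalized counts of 282, 366 and 292 in QHMM and 345, 474 and 406 in STH and a log2 fold change of 0.38 (SE 0.22; edgeR FDR 0.381). EIF2AK2, the kinase that binds viral RNA, had 15.2, 15.2 and 19.3 normalized counts in QHMM and 36.3, 34.2 and 10.1 in STH. STH replicate 3 was lowest of all, and the log2 fold change was 0.71 (SE 0.50; edgeR FDR 0.484). EIF2AK3, the kinase of the endoplasmic reticulum known as PERK, had normalized counts of 108, 59.7 and 77.2 in QHMM and 84.2, 78.0 and 58.3 in STH. EIF2AK4, the amino acid sensor GCN2, had 83.0, 94.8 and 107 in QHMM and 105, 132 and 87.4 in STH. The log2 fold changes of EIF2AK3 and EIF2AK4 were −0.15 (SE 0.30; edgeR FDR 0.830) and 0.19 (SE 0.26; edgeR FDR 0.743). Without QHMM replicate 1 the value of EIF2AK3 was 0.08, and without STH replicate 2 those of EIF2AK4 and EIF2AK1 were 0.00 and 0.24.

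EIF5A carries the modified residue hypusine and helps ribosomes through difficult peptide bonds. Its RPKM was nearly level, at 547, 554 and 531 in QHMM and 551, 587 and 521 in STH. The normalized counts ran to 3258, 3913 and 3105 in QHMM and 2770.4, 3201 and 3680.0 in STH, for a log2 fold change of −0.09 (SE 0.23; edgeR FDR 0.875) that turned to 0.02 on the RPKM scale or without QHMM replicate 2. EIF6, which keeps the ribosomal subunits apart, had a log2 fold change of 0.49 (SE 0.21; edgeR FDR 0.237), and its STH libraries lay above all QHMM libraries.

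EEF1A2, EEF1G and EEF2, all elongation factors, were the most abundant members by RPKM. EEF1A2, the eEF1A form of adult muscle and nerve, had 58741, 80578 and 64386 normalized counts in QHMM and 60138, 62343 and 96008 in STH. The breeds overlapped, STH replicate 3 and QHMM replicate 2 being highest in their breeds, and the log2 fold change was 0.10 (SE 0.29; edgeR FDR 0.889). Without STH replicate 3 it was −0.15, and without QHMM replicate 1 −0.01.

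EEF1A1, the form of most other tissues, was not listed under its symbol. LOC100101228, named EEF1A1 in RefSeq, had RPKM values of 11.4, 6.58 and 9.21 in QHMM and 15.1, 10.1 and 6.10 in STH. EEF1A2 thus exceeded it 252-fold, 506-fold and 349-fold in QHMM and 231-fold, 329.8-fold and 651-fold in STH. The log2 ratio differed by 0.05 between the breeds, with an exact two-sided permutation p of 1, and its difference was −0.36 without STH replicate 3, −0.19 without QHMM replicate 1 and 0.39 without STH replicate 1. The table named 20 entries as EEF1A1 or its copies, with 16339 reads in all, of which LOC100101228 held 3564. EEF1A2 held 414995 reads. The folds are against this entry alone and would be lower against all entries. The gene length implied by counts and RPKM was 1593 bases for EEF1A2 and 4717 for LOC100101228. The level of the folds therefore also depends on the gene models. Reads that did not map uniquely among the EEF1A1 entries were not counted.

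Of the 5 tested genes with EEF1 symbols, 4 had positive fold changes, beside 51.8% of all tested genes. EdgeR, DESeq2 and limma-trend called 0, beside 3.45% (edgeR) and 7.8% (DESeq2) of all tested genes. An unadjusted p-value below 0.05 was found for 1, near the background of 19.2%. That gene was EEF1E1, the synthetase complex component, with a log2 fold change of 0.79 (SE 0.33; edgeR FDR 0.219). EEF1G, a structural subunit of the exchange factor, was at a log2 fold change of 0.05 (SE 0.25; edgeR FDR 0.940). EEF1B2, its exchange subunit, had all STH libraries above those of QHMM at a log2 fold change of 0.33 (SE 0.22; edgeR FDR 0.440).

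EEF2 had 23074, 26672 and 24558 normalized counts in QHMM and 28629, 36252 and 41579 in STH. Every STH library lay above every QHMM library, with means of 24768 ± 1808 and 35486 ± 6509 (SD, n = 3 each), but the edgeR test did not call the difference, at a log2 fold change of 0.52 (SE 0.25) and an FDR of 0.297. Its kinase EEF2K, which stops elongation by phosphorylating eEF2, had 2126, 2855 and 3107 normalized counts in QHMM and 2505, 2487 and 2475 in STH. EEF2K lay within the QHMM range in all STH libraries, with a log2 fold change of −0.12 (SE 0.23; edgeR FDR 0.831) that turned to 0.02 on the RPKM scale and was 0.00 without QHMM replicate 3. Of EEF2 and EEF2K, 0 had an unadjusted p-value below 0.05, beside 19.2% of all tested genes. DESeq2 called 0, beside 7.8%, and limma-trend called 0.

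**Figure D3:**
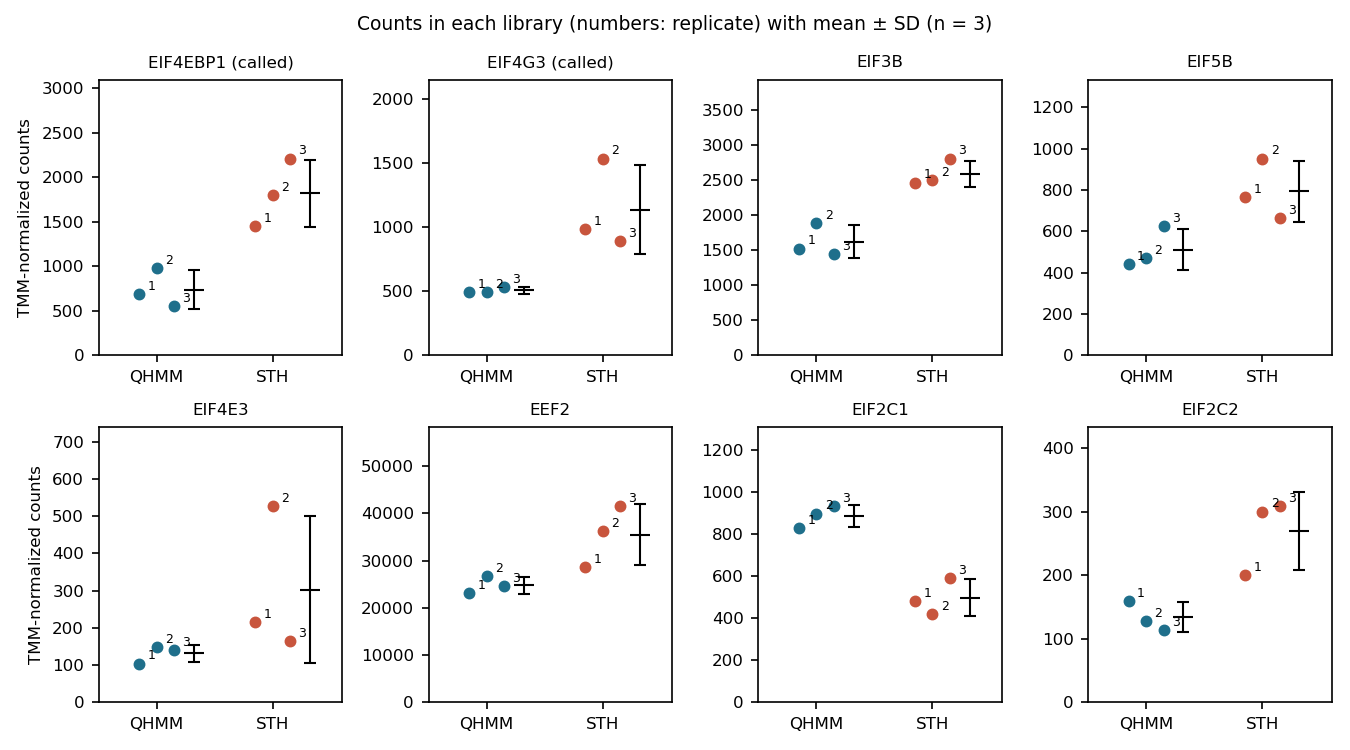
TMM-normalized counts of 8 genes in each library, with replicate numbers beside the points and the mean ± SD of 3 libraries in black; each axis starts at 0. EIF4EBP1 and EIF4G3 were called higher in STH, and in the other 6 genes the breeds did not overlap but the FDR was at or above 0.05.

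The argonaute genes listed as EIF2C1 to EIF2C4 load small RNAs for silencing, and edgeR called 0 of the 4, beside 3.45% of all tested genes. An unadjusted p-value below 0.05 was found for 2, which had fold changes of opposite sign, and DESeq2 called these 2, beside 19.2% and 7.8% of all tested genes. Limma-trend called 0 of the 3 it tested. EIF2C1, now AGO1, had normalized counts of 828, 899 and 936 in QHMM and 482, 422 and 594 in STH. All STH libraries lay below those of QHMM, at a log2 fold change of −0.83 (SE 0.21), and the edgeR FDR of 0.0582 did not pass. It was the only member for which STH lay wholly below QHMM.

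EIF2C2, now AGO2, the argonaute that cleaves its targets, had normalized counts of 159.8, 128 and 114 in QHMM and 199.7, 300.2 and 309 in STH. The STH libraries lay above those of QHMM, at a log2 fold change of 1.01 (SE 0.26) and an edgeR FDR of 0.0610. EdgeR called both EIF2C1 and EIF2C2 when no filter on low counts was used. It also called EIF2C1 with at least 10 counts required in every library (edgeR FDR 0.0469) and EIF2C2 without STH replicate 1 (edgeR FDR 0.0356). DESeq2 called both genes, EIF2C1 at an FDR of 0.0152 and EIF2C2 at 0.0191, within ranges of 0.0152 to 0.212 and 0.0191 to 0.288 over the alternatives. EIF2C4, the most abundant of the 4 by RPKM, had normalized counts of 378, 619 and 826 in QHMM and 571, 919 and 524 in STH, for a log2 fold change of 0.14 (SE 0.31; edgeR FDR 0.850). That value was −0.17 without STH replicate 2 and −0.13 without QHMM replicate 1.

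Other genes that control translation were described from a list of 46 symbols, of which 43 were matched and 42 tested. EdgeR called 1 gene higher in STH and 0 lower, near the background of 3.45% of all tested genes. The log2 fold change was positive for 32, with a median of 0.19, beside 51.8% and 0.02 for all tested genes. The called gene was SESN1, which encodes sestrin 1, a stress-induced inhibitor of mTOR complex 1. It stood at 497, 586 and 789 normalized counts in QHMM and at 3844, 6714 and 4414 in STH. SESN1 was 7.99-fold higher in STH, with no overlap, a log2 fold change of 3.0 (SE 0.30) and an edgeR FDR of 0.00231. It was called in each of the 6 fits with 1 library left out, but not with QHMM replicate 2 and STH replicate 3 both left out (log2 fold change 3.02, edgeR FDR 0.0604). Over all alternatives its FDR was 1.65e-20 to 0.0604.

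The kinase MTOR had a log2 fold change of 0.40 (SE 0.22; edgeR FDR 0.353). Of the whole list, 7 genes had an unadjusted p-value below 0.05 and DESeq2 called 4 genes, SESN1, DDIT4L, RICTOR and PABPC1, beside 19.2% and 7.8% of all tested genes. Of 9 mitochondrial translation factors, which serve the separate ribosomes of mitochondria, all were tested. Of these, 5 had positive fold changes, with a median log2 fold change of 0.04, near the 51.8% and 0.02 of all tested genes. EdgeR, DESeq2 and limma-trend called 0, beside 3.45% (edgeR) and 7.8% (DESeq2) of all tested genes. An unadjusted p-value below 0.05 was found for 0, beside 19.2%.

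Of 4 adipocyte markers, edgeR called ADIPOQ, PLIN1 and LEP lower in STH, beside 3.45% of all tested genes called in either direction. LEP had 84, 11 and 24 counts in QHMM and 5, 0 and 1 in STH, and was above the count minimum in 3 libraries. It passed the filter on low counts only through QHMM, the breed where it was high, so its call is not independent of the filter. FABP4, the most abundant, was not called, at a log2 fold change of −0.04 (SE 0.61; edgeR FDR 0.980). DESeq2 called 3 of the 4, beside 7.8% of all tested genes. Limma-trend called ADIPOQ and PLIN1 but did not test LEP, which its filter on RPKM left out. ADIPOQ, which encodes adiponectin, had normalized counts of 3197, 1101 and 1672 in QHMM and 461, 512 and 393 in STH. The summed RPKM of the 4 was 221, 50.9 and 84.9 in QHMM and 123, 51.4 and 35.2 in STH, so the sums overlapped, and LEP had 0 counts in STH replicate 2. The part of this difference in the fold changes of the translation factors was not tested, and in bulk tissue fewer cells of a type and less RNA per cell cannot be told apart. EdgeR called 0 of 2 satellite cell, 3 fibroblast, 3 endothelial, 3 macrophage, 3 T cell and 3 Schwann cell markers tested, beside 3.45% of all tested genes. Among those, COL1A1 of the fibroblast list and CD2 of the T cell list had an unadjusted p-value below 0.05, beside 19.2% of all tested genes. Both lay wholly lower in STH, at log2 fold changes of −1.30 (SE 0.41; edgeR FDR 0.113) and −1.84 (SE 0.45; edgeR FDR 0.0520). Positive fold changes were found for 0 fibroblast, 0 T cell, 0 satellite cell, 2 endothelial, 2 macrophage and 1 Schwann cell markers. DESeq2 called 1 gene in each of the fibroblast and T cell lists, beside 7.8% of all tested genes. In the other lists 0 genes had an unadjusted p-value below 0.05 and DESeq2 called 0, and limma-trend called 0 of those it tested.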

How the data were processed

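The authors aligned filtered reads against the sheep assembly Oar 3.1 and deposited unnormalized counts of uniquely mapped reads per gene. The deposited RPKM divides these by the length of the gene and the library's total, and 25 gene names that had become dates were left out of that table. The aligner, counter and annotation release are not given in the sources used here. Counts were tested with edgeR 4.0.16 in R 4.3.3 (TMM, filterByExpr, glmQLFit and glmQLFTest on breed, Benjamini-Hochberg over all tested genes, FDR below 0.05 and a fold change above 1.5), and the method was tested on simulated data. The SE was obtained from the fold change and the F statistic. Alternatives used DESeq2 1.42.0 and limma 3.58.1, 12 settings with all libraries and 6 fits with 1 library left out. Ratios were compared by exact permutation in Python 3.11.15 with NumPy 2.4.6, and SciPy 1.17.1 gave the Wilson intervals. Lists of translation control, mitochondrial translation and cell type marker genes were written from general knowledge. Members and lists were chosen with earlier results of these data known. Values per library are given for called members, members without overlap above the minimum fold change, the most abundant of each role, and a set of central factors; other genes named were chosen after their values were seen. EBSeq, the study's program, was not used here.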

Additional observations from a re-analysis of the deposited data

How the results depend on the processing

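The members called numbered 5 with DESeq2, 4 without a filter on low counts, 0 at an FDR of 0.01, 1 by limma-trend on log2(RPKM + 1) without a filter, and 0 to 3 with 1 library left out. All genes called were 975, 806, 41, 78 and 131 to 535 under these settings. Translation control genes called were 4 with DESeq2, 3 without a filter and 1 to 2 with 1 library left out. Leaving out QHMM replicate 2 and STH replicate 3 together, chosen after the data were seen, gave 0 members, 11 genes and 0 control genes by edgeR.

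Replicate numbers are shared, but nothing in the labels pairs the animals, and the correlations of same-numbered deviations were 0.226, −0.038 and −0.13. QHMM replicate 2 correlated best with STH replicate 3 (0.287), so not every sample was closest to its own number. With the number as a block, 2 members, 457 genes and 1 control gene were called, and EIF4E turned to 0.01.

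The median log2 fold change of the members was 0.24 to 0.39 with 1 library left out. On log2(RPKM + 0.1), the median of all genes was higher by 0.12 than on counts, and the members' median relative to all genes was 0.30.

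Small log2 fold changes changed sign. With 1 library left out, they ranged from −0.15 to 0.25 for EEF1A2, −0.28 to 0.00 for EEF2K, −0.23 to 0.13 for EIF1, −0.33 to 0.08 for EIF2AK3, −0.17 to 0.43 for EIF2C4, −0.09 to 0.18 for EIF2S1, −0.18 to 0.20 for EIF4E and −0.20 to 0.02 for EIF5A. Other small values moved without turning, ranging from 0.05 to 0.27 for EIF4GI, 0.01 to 0.26 for EIF3K, 0.00 to 0.32 for EIF2AK4, 0.16 to 0.45 for EIF2B4, 0.24 to 0.51 for EIF2AK1 and −0.39 to −0.17 for EIF4G2. The EEF1A2 to EEF1A1 log2 ratio difference ranged from −0.36 to 0.39. By limma-trend on log2(RPKM + 1), with or without a filter, and on log2(RPKM + 0.1), EEF2K was at 0.02, EIF1 at 0.03 and EIF5A at 0.02, and EIF4E was at 0.10, or 0.12 with the smaller pseudocount. With QHMM replicate 2 and STH replicate 3 left out, EEF1A2 was at −0.02, EIF1 at 0.07 and EIF2S1 at −0.05.

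Each breed had 3 animals, and reads that did not map uniquely were not counted. The proteins and their phosphorylation were not measured. The identity of genes listed only by locus number rests on a newer assembly, or for EIF3C on the deposited BLAST symbol.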
